A study of Mus musculus with 9 samples.

Results

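Proteoglycans are core proteins that carry sulfated sugar chains, and 10 of their genes were followed here among the 56748 genes of the deposited count table. They were chosen by name: the lecticans Vcan, Ncan, Bcan and Acan, the receptor phosphatase Ptprz1, and the small leucine-rich repeat genes Bgn, Dcn, Lum, Prelp and Fmod. All 10 were found once each in the table. PolyA RNA was sequenced in 9 libraries, 3 biological replicates in each of 3 groups. The donors of all groups were wild-type C57BL/6J mice aged 2 to 3 months, and the tissue was cortex. Uninjured cortex and injured cortex were dissociated with papain and sorted by flow cytometry, leaving out debris, dead cells and cells that carried CD171 and lacked ACSA-2, the neuronal gate. The injury was a grid of lancet stab wounds, and reactive cultures were whole, unsorted cell cultures grown from lesion cores in medium with B27 and 10% fetal bovine serum. The times conflict between the sources: by the labels tissue was taken 1 day after injury and cultured for 6 days, and by the design text injured cortex was taken at 3 days, and culture tissue at 24 h with 8 days in vitro. The number of animals behind each library is not given in the sources used here.

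Lecticans bind hyaluronan at one end and tenascins at the other and carry chondroitin sulfate. They form much of the matrix around brain cells and are known as components of the glial scar that restrain axon growth. Astrocytes and oligodendrocyte precursors make most of the brain's lecticans and Ptprz1. The small leucine-rich proteoglycans bind collagen fibrils and growth factors and are typical of fibrous tissue, vessel walls and meninges. In bulk samples, fewer cells of a type and less RNA per cell cannot be told apart.

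The sequence just upstream of the start site is shown for 4 genes on which the results below turn: Bgn, which had the largest increase in the cultures, Bcan, the most abundant lectican in vivo, and the chromosomal neighbours Prelp and Fmod, which moved in opposite directions in the cultures. Each is the 250 bases before the RefSeq start site, in build GRCm38.p6, whereas the counts come from GRCm39. The promoter table held 8 of the 10 genes, without Dcn and Lum. Capitals mark matches, on either strand, to any of 6 motifs. The GC box was searched as GGGCGG. The TATA box was searched as TATAAA. The AP-1 motif was searched as TGANTCA. The TEAD motif was searched as GGAATG. The SOX motif was searched as AACAAT. The STAT motif was searched as TTCNNNGAA.
Bgn, chrX:73483351-73483600, plus strand: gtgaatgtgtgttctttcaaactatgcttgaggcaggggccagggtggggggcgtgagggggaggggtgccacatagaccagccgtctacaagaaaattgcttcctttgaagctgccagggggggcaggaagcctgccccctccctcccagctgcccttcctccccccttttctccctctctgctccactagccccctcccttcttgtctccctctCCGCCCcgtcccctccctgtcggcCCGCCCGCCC
Bcan, chr3:88000357-88000606, minus strand: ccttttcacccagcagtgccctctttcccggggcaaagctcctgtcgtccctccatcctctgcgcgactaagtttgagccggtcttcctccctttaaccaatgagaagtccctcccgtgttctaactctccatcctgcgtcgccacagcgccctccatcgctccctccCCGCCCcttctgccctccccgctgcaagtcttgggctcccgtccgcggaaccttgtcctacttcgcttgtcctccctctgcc
Prelp, chr1:133921402-133921651, minus strand: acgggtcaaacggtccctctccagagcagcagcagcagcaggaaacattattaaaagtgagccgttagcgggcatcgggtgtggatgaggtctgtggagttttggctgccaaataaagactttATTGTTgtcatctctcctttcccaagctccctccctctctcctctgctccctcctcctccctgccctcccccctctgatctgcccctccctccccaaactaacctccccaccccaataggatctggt
Fmod, chr1:134037004-134037253, plus strand: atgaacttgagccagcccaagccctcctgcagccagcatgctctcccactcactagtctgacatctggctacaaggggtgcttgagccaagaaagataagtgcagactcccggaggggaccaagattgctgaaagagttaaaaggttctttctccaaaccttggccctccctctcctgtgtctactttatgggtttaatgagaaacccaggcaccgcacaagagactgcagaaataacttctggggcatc
GC content was 64.4% for Bgn, 62.0% for Bcan, 55.6% for Prelp and 51.2% for Fmod, against a median of 52.4% over all promoters in the table. Bgn held 3 GC boxes, of which the last 2 overlap, and Bcan held 1, a motif found in 32.7% of all promoters of this length. Prelp held a single match, to the SOX letters, which 9.42% of all promoters have. Fmod held none of the 6 motifs. The TATA, AP-1, TEAD and STAT letters, absent from these 4 windows, occur in 12.4%, 6.75%, 12.6% and 7.02% of all promoters.

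Total counts per library ranged from 12205049 to 24302770. Injured replicate 3 stood apart from its group: 10 astrocyte markers summed to 2312, 2584 and 5447 CPM (the usual scaling of counts to the library total) in injured replicates 1, 2 and 3, and 8 oligodendrocyte precursor markers to 612, 248 and 1264 CPM. Uninjured replicates 2 and 3 held 175 and 146 CPM at 1767 olfactory and vomeronasal receptor genes, which cortex hardly uses, against 14.3 to 44.0 CPM in the other 7 libraries. The cultures had few astrocyte transcripts, with marker sums of 71.7, 92.6 and 127 CPM, and 35415, 30536 and 30395 CPM over 8 monocyte and macrophage markers, of which 4 were higher and 3 lower than in uninjured cortex. In that comparison 27.5% of all genes were called higher and 33.1% lower. No astrocyte, precursor, oligodendrocyte, microglia, endothelial or mural marker was at 0 in a whole group, and of 10 fibroblast markers only Dpt was at 0 in the cultures. The 8 neuronal markers summed to 22 to 35.4 CPM in uninjured and 45.5 to 103 CPM in injured cortex.

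After injury 4 of the 9 proteoglycan genes that passed the filter on low counts were called, at an adjusted p under 0.05 in edgeR's quasi-likelihood test: Vcan and Dcn were higher and Bgn and Prelp lower. Of all 18093 genes tested, 11.9% were called, 8.99% higher and 2.87% lower. At an unadjusted p under 0.05, 26.2% of all genes passed. The injured and uninjured libraries did not overlap for 4 of the 9, Dcn higher and Bgn, Prelp and Fmod lower, where 28.6% of all genes did not overlap, 16.1% higher and 12.5% lower. The median log2 fold change of the 9 was -0.14, against 0.00121 for all genes. In cultures against injured cortex all 9 were called, Bgn, Dcn, Lum and Fmod higher and Vcan, Ncan, Bcan, Ptprz1 and Prelp lower, where 50.1% of all genes were called, 20% higher and 30.1% lower (median -1.15 against -0.19). The libraries of the 2 groups did not overlap for any of the 9, where 59.7% of all genes had none, 25.8% higher and 33.8% lower. In cultures against uninjured cortex 8 were called, the same 4 higher and Ncan, Bcan, Ptprz1 and Prelp lower, where 60.5% were called, 27.5% higher and 33.1% lower (median -0.80 against -0.17). Again none of the 9 overlapped, where 69.2% of all genes had none, 32.1% higher and 37.1% lower. The comparisons share libraries, so their calls are not independent.

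Bcan encodes brevican, a lectican made mainly by astrocytes. Its level, as CPM with TMM scaling (trimmed mean of M values), was 315, 207 and 282 in uninjured replicates 1, 2 and 3, 111, 102 and 372 in injured cortex and 4.85, 3.22 and 4.62 in the cultures. All 3 cultures were far below all 6 in vivo libraries, while injured cortex spanned the uninjured range, with replicates 1 and 2 below it and replicate 3 above. The log2 fold change was -5.53 ± 0.52 (SE) in cultures against injured cortex and -5.99 ± 0.53 against uninjured cortex, a 63.5-fold lower level (adjusted p = 5.53e-06 and 2.01e-06). Between injured and uninjured cortex it was -0.46 ± 0.42 (adjusted p = 0.536), and without injured replicate 3 it was -1.35, which passed (adjusted p = 0.00169).

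Ptprz1 encodes a transmembrane receptor phosphatase with chondroitin sulfate on its outer part, whose secreted form is called phosphacan. It was at 126, 112 and 178 CPM in uninjured cortex, 107, 62.9 and 344 CPM in injured cortex and 1.54, 1.90 and 2.43 CPM in the cultures. As with Bcan, injured replicate 3 was the highest of all libraries and the cultures were the lowest. The difference of cultures from injured cortex was -6.46 ± 0.63 on the log2 scale, the largest fall of the 9 genes tested (adjusted p = 6.59e-06), and from uninjured cortex -6.15 ± 0.62 (adjusted p = 5.17e-06). Injured and uninjured cortex differed by 0.31 ± 0.48 (adjusted p = 0.736), and the sign turned without injured replicate 3 (-0.73, adjusted p = 0.0747). The 3 genes listed here as its ligands, Ptn (pleiotrophin), Mdk (midkine) and Cntn1 (contactin 1), were all lower in the cultures than in injured cortex, with log2 fold changes of -6.43, -1.15 and -5.34. In that comparison 30.1% of all genes were called lower. After injury 0 of the 3 passed in edgeR, 2 at an unadjusted p under 0.05, 1 in DESeq2 and 0 in limma-voom. Of all genes, 11.9% were called by edgeR after injury and 26.2% had an unadjusted p under 0.05.

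Ncan encodes neurocan. Its level was 16.4, 18.8 and 24.0 CPM in uninjured cortex, 10.5, 11.8 and 35.1 CPM in injured cortex and 3.99, 3.56 and 3.76 CPM in the cultures. Its groups overlapped in vivo, again with injured replicates 1 and 2 lowest and replicate 3 highest, and the cultures lay below. The fall in the cultures was smaller than that of Bcan in size, -2.34 ± 0.43 against injured and -2.39 ± 0.43 against uninjured cortex (adjusted p = 8.05e-04 and 5.12e-04); whether the 2 genes differ was not tested. After injury the log2 fold change was -0.0406 ± 0.40 (adjusted p = 0.963), against -0.84, adjusted p = 0.0337 without injured replicate 3.

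Vcan encodes versican, a lectican of oligodendrocyte precursors and of stromal and myeloid cells. It was at 4.25, 2.65 and 2.74 CPM in uninjured cortex, 12.5, 2.77 and 26.8 CPM in injured cortex and 1.97, 2.13 and 1.41 CPM in the cultures. Injured replicates 1 and 3 were above every other library, and injured replicate 2 was within the uninjured range. Vcan was the single lectican called higher after injury, with a log2 fold change of 2.13 ± 0.60 (adjusted p = 0.0397), and it was lower in the cultures than in injured cortex, with a log2 fold change of -2.93 ± 0.63 (adjusted p = 0.00247). Against uninjured cortex the cultures were at -0.80 ± 0.62 (adjusted p = 0.278), although the libraries did not overlap. The call after injury was lost in 14 of 19 alternatives, among them each left-out library but injured replicate 2, with adjusted p of 0.0869 without injured replicate 1 and 0.0959 (log2 fold change 1.23) without injured replicate 3. Within injured cortex the precursor markers were in the same order as Vcan, lowest in replicate 2 and highest in replicate 3, while 8 monocyte and macrophage markers summed to 8391, 5357 and 2488 CPM there and 534, 679 and 735 CPM in uninjured cortex. The part of these cells in the Vcan difference was not tested.

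Acan encodes aggrecan, the lectican of cartilage and of perineuronal nets. It had 1, 1 and 3 counts in uninjured replicates 1, 2 and 3, 11, 0 and 76 in injured cortex and 10, 4 and 4 in the cultures, and was not tested because it did not pass the filter on low counts. Injured replicate 3 held most of its in vivo counts. It passed the filter in 7 of the 9 fits that left out 1 library, not without injured replicate 1 or 3, and was then called after injury once, without injured replicate 2 (adjusted p = 0.0195, against 0.129 to 0.285 in the other 6). The 0 in injured replicate 2 allows a level of up to 0.157 CPM at a limit of 3 counts, which covers counting error only. With no filter, the log2 fold change after injury was 3.50 (adjusted p = 0.00418), and no comparison with the cultures passed.

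**Figure D1:**
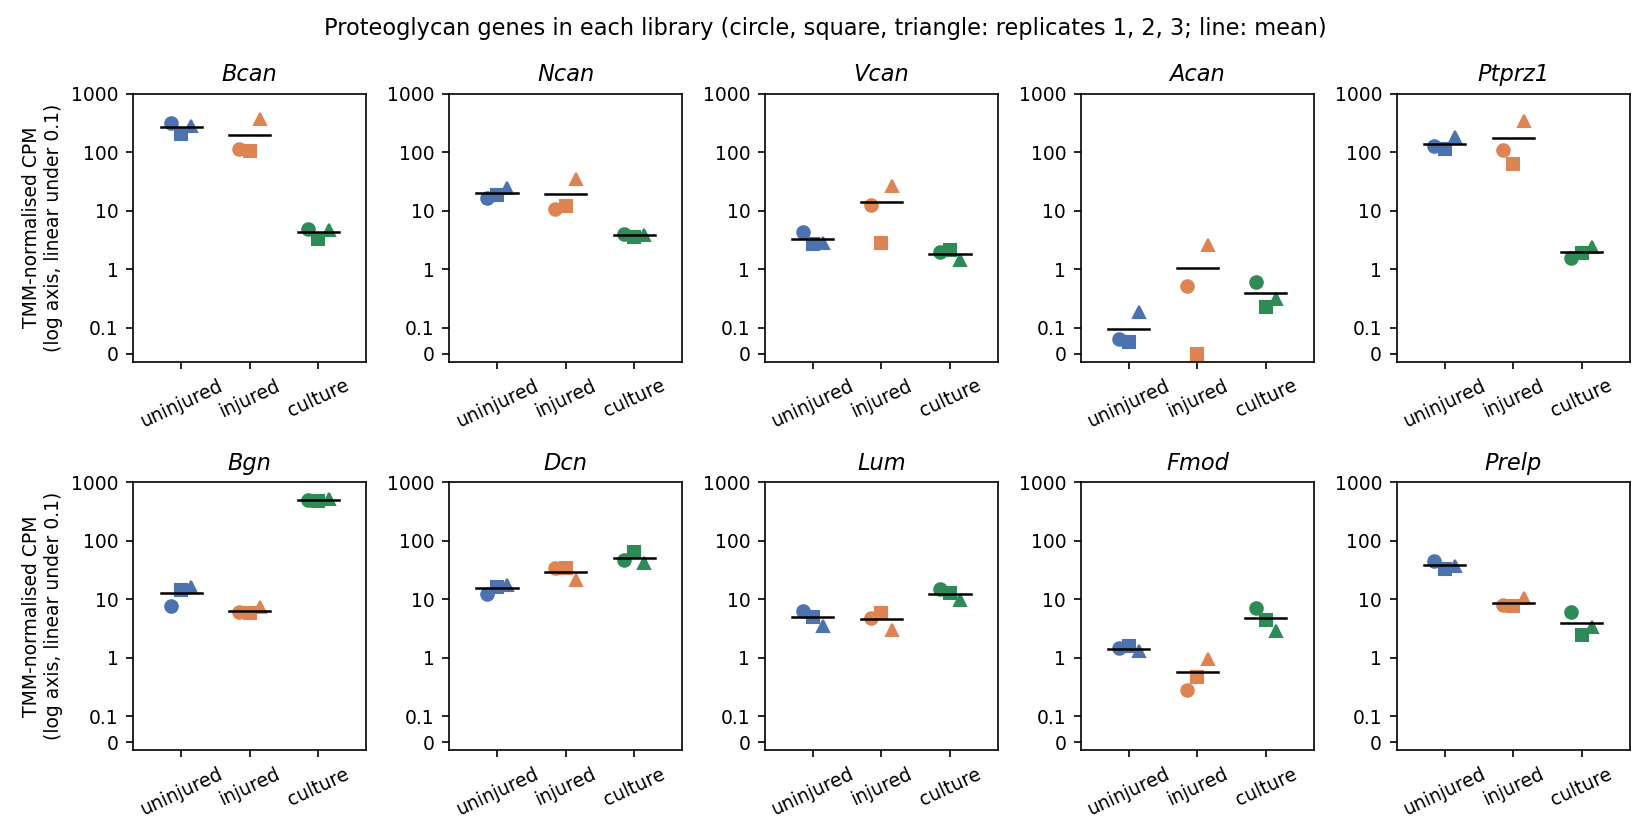
Level of each of the 10 proteoglycan genes in the 9 libraries as TMM-normalised CPM, on a log axis that is linear under 0.1, with a symbol for each replicate and a line at the mean of each group. Bcan, Ncan and Ptprz1 are lowest in the 3 cultures, Bgn, Dcn, Lum and Fmod are highest there, Prelp is highest in uninjured cortex, and injured replicate 3 is the highest library for Bcan, Ncan, Vcan, Acan and Ptprz1.

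Lectican and astrocyte marker levels were set side by side in each library. Lectican sums are TMM-scaled CPM and marker sums are CPM of the library total, so the 2 are on unlike scales. The TMM factors ran from 0.716 in culture replicate 2 to 1.39 in injured replicate 3. Ratios to marker counts use raw counts of the same library. The 4 lecticans summed to 336, 229 and 309 CPM in uninjured, 135, 117 and 437 CPM in injured and 11.4, 9.14 and 10.1 CPM in culture libraries, while the astrocyte markers summed to 7999, 4760.3 and 7448 CPM, 2312, 2584 and 5447 CPM and 71.7, 92.6 and 127 CPM. Set against the astrocyte marker counts of its own library, Bcan was at 4.45%, 5.21% and 5.09% in uninjured cortex, 4.89%, 3.71% and 9.50% in injured cortex and 5.07%, 2.49% and 2.78% in the cultures. Against the precursor markers it was at 74.1%, 35.8% and 106% in uninjured cortex, 18.5%, 38.6% and 40.9% in injured cortex and 7.31%, 7.45% and 7.79% in the cultures. The 3 groups overlapped in the first ratio, whereas in the second every culture lay below every in vivo library. The precursor markers include Cspg4, also a mural marker, and Pdgfra, also a fibroblast marker, so their sum is not a measure of precursors alone. In cultures against uninjured cortex 1 of the 8 precursor markers was called higher and 5 lower, where 27.5% of all genes were higher and 33.1% lower. Ptprz1 was at 1.77%, 2.81% and 3.21%, 4.69%, 2.28% and 8.78% and 1.61%, 1.47% and 1.46% of the astrocyte marker counts, and at 29.5%, 19.3% and 66.9%, 17.7%, 23.8% and 37.8% and 2.31%, 4.39% and 4.10% of the precursor marker counts, in the same order of groups. Ncan was at 0.232%, 0.472% and 0.433% of the astrocyte marker counts in uninjured cortex, 0.460%, 0.427% and 0.896% in injured cortex and 4.17%, 2.75% and 2.26% in the cultures, which overlapped neither in vivo group. Against the precursor marker counts Ncan was at 3.85%, 3.24% and 9.03%, 1.74%, 4.45% and 3.86% and 6.01%, 8.24% and 6.34%, in the same order of groups. There the cultures overlapped uninjured cortex and lay above injured cortex. Vcan was at 0.999%, 0.458% and 1.03% of the precursor marker counts in uninjured cortex, 2.06%, 1.05% and 2.95% in injured cortex and 2.96%, 4.92% and 2.38% in the cultures. No test was made on these ratios, and the part of cell makeup in the falls was not tested.

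Bgn encodes biglycan, which carries chondroitin or dermatan sulfate and binds collagen and TGF-beta. It was at 7.73, 14.5 and 16.4 CPM in uninjured cortex, 6.04, 5.81 and 7.25 CPM in injured cortex and 501, 471 and 503 CPM in the cultures. The 3 cultures were close to each other and far above every in vivo library. The log2 fold change was 6.27 ± 0.33 against injured cortex and 5.25 ± 0.31 against uninjured cortex, a 38.2-fold higher level (adjusted p = 8.41e-08 and 8.48e-08). After injury Bgn fell, with a log2 fold change of -1.01 ± 0.27, and all injured libraries lay below all uninjured ones (adjusted p = 0.0298). This fall lost its call when any one of 5 libraries was left out: culture replicate 3 (adjusted p = 0.0519), injured replicates 1 and 2 (0.115 and 0.0884), and uninjured replicates 2 and 3 (0.108 and 0.117). With uninjured replicates 2 and 3 both left out it was -0.29, adjusted p = 0.766. The call was also lost with limma-voom and in a fit of the 2 groups alone.

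Dcn encodes decorin, a collagen-binding relative of biglycan. Its level was 12.3, 15.9 and 17.5 CPM in uninjured cortex, 33.5, 33.5 and 21.4 CPM in injured cortex and 46.7, 64.1 and 41.2 CPM in the cultures. The 3 groups did not overlap, and Dcn was the only one of the 10 genes called higher in all 3 comparisons: 0.95 ± 0.25 after injury, 0.78 ± 0.25 in cultures against injured cortex and 1.74 ± 0.26 against uninjured cortex (adjusted p = 0.0285, 0.0203 and 1.14e-04). The first call was lost in 9 of 19 alternatives, among them without any one of uninjured replicates 1, 2 and 3 or injured replicates 1 and 2 (adjusted p from 0.0569 to 0.140). The second was lost without culture replicate 2 (0.56, adjusted p = 0.130), and also when injured replicate 3 was left out (0.60, adjusted p = 0.0570) or when library sizes left out the most abundant genes (0.56, adjusted p = 0.0637).

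Lum encodes lumican, a keratan sulfate proteoglycan and the chromosomal neighbour of Dcn. It was at 6.24, 5.04 and 3.54 CPM in uninjured cortex, 4.77, 5.76 and 3.00 CPM in injured cortex and 14.6, 12.9 and 9.63 CPM in the cultures. The in vivo groups overlapped (-0.14 ± 0.33, adjusted p = 0.838), with a sign that turned without injured replicate 3 (0.0705) or uninjured replicate 1 (0.0752), and the cultures lay above both. The rise in the cultures was 1.46 ± 0.34 against injured and 1.33 ± 0.34 against uninjured cortex (adjusted p = 0.00357 and 0.00485). The second call was lost with uninjured replicates 2 and 3 both left out (0.98, adjusted p = 0.141).

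Prelp and Fmod are neighbouring genes that encode PRELP, which links collagen to basement membranes, and fibromodulin, which binds collagen fibrils. Prelp was at 44.2, 32.9 and 37.4 CPM in uninjured cortex, 7.88, 7.70 and 10.6 CPM in injured cortex and 6.02, 2.41 and 3.36 CPM in the cultures. Each group was below the one before without overlap, and Prelp fell by 2.12 ± 0.31 on the log2 scale after injury and by 1.15 ± 0.32 further in the cultures (adjusted p = 0.00102 and 0.0103). Its calls held in all 19 alternatives of all 3 comparisons, with a log2 fold change after injury of -2.35 to -1.99. Fmod was at 1.44, 1.57 and 1.28 CPM in uninjured cortex, 0.283, 0.471 and 0.953 CPM in injured cortex and 7.0, 4.31 and 2.82 CPM in the cultures. The mean of Fmod was thus lowest in injured cortex (-1.29 ± 0.52, adjusted p = 0.133, or -1.93, adjusted p = 0.0244 without injured replicate 3) and highest in the cultures, by 3.01 ± 0.52 against injured cortex (adjusted p = 5.91e-04). Its rise of 1.72 ± 0.49 over uninjured cortex (adjusted p = 0.00991) lost its call without culture replicate 1 (1.33, adjusted p = 0.0573), with library sizes that left out the most abundant genes (adjusted p = 0.0534), and with uninjured replicates 2 and 3 both left out (adjusted p = 0.123). Prelp and Fmod therefore had called changes of opposite sign between cultures and both in vivo groups; the difference between the 2 genes was not itself tested.

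**Figure D2:**
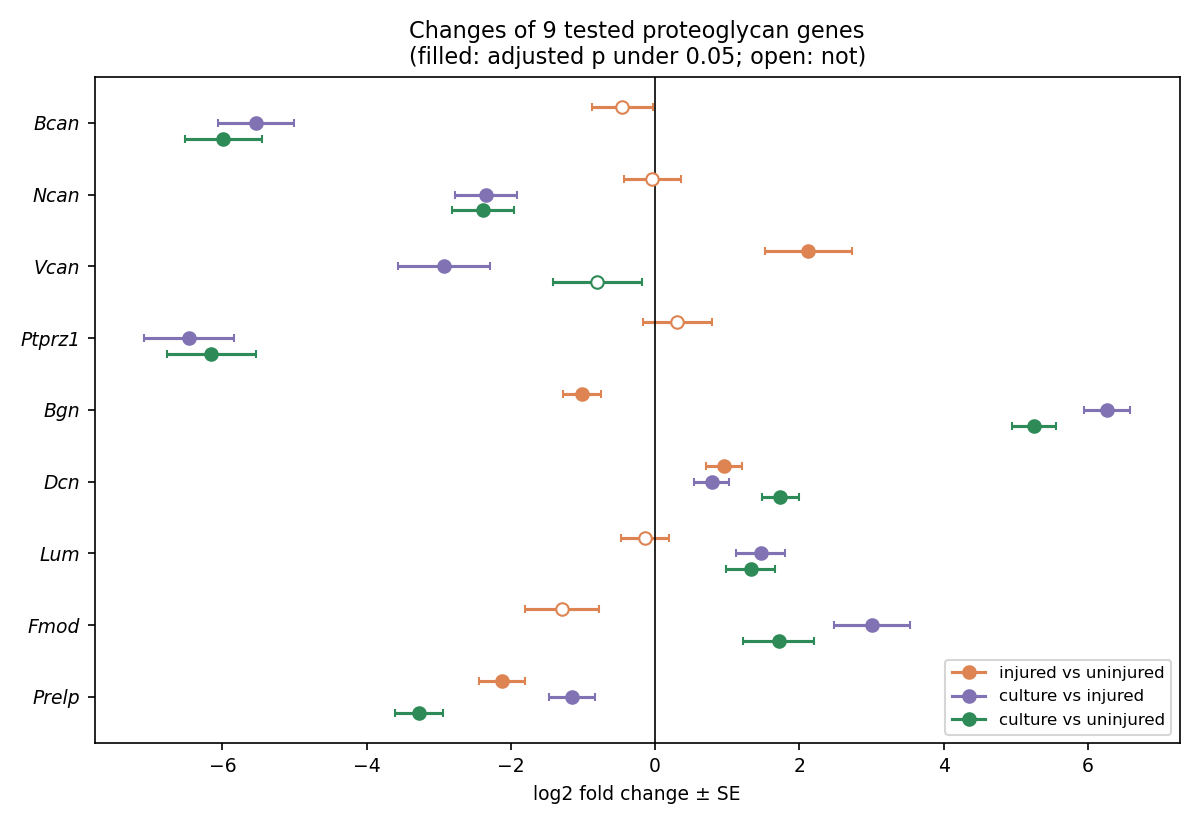
Log2 fold change with its SE for the 9 proteoglycan genes tested, in 3 comparisons shown by colour, with filled points for an adjusted p under 0.05. The culture comparisons put Bcan, Ncan, Ptprz1 and Prelp to the left of 0 and Bgn, Dcn, Lum and Fmod to the right, and after injury the filled points are Vcan, Bgn, Dcn and Prelp.

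Levels of different genes were compared per kilobase of exon, with gene lengths from GENCODE M21. In uninjured cortex Bcan was highest at 66.0 ± 13.7 CPM per kilobase (SD, n = 3), followed by Prelp at 10.6 ± 1.57 and Ptprz1 at 9.72 ± 2.45, which lay within each other's spread. Ncan, Dcn, Bgn and Lum came next, at 2.74 ± 0.543, 2.61 ± 0.460, 2.11 ± 0.747 and 2.02 ± 0.553 CPM per kilobase, with overlapping spreads, and Fmod (0.433 ± 0.0444), Vcan (0.222 ± 0.0621) and Acan (0.0126 ± 0.0103) were lowest. In injured cortex the wide spread left Bcan (48.1 ± 37.7) and Ptprz1 (12 ± 10.6) as the 2 highest means, followed by Dcn at 5.05 ± 1.19. The order was recast in the cultures: Bgn led at 80.6 ± 2.98 CPM per kilobase, then Dcn at 8.68 ± 2.04 and Lum at 5.06 ± 1.04, while Bcan was at 1.04 ± 0.217 and Ptprz1 at 0.137 ± 0.0314.

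As shares of the summed counts per kilobase of the 10 genes, Bcan made up 72.1%, 65.1% and 67.2% in uninjured and 56.8%, 58.9% and 69.3% in injured libraries, and 1.17%, 0.817% and 1.17% in the cultures. Bgn made up 1.18%, 3.03% and 2.60% in uninjured, 2.05%, 2.23% and 0.899% in injured and 80.6%, 79.6% and 84.8% in culture libraries. Dcn made up 11.9%, 13.4% and 2.78% in injured libraries, against 1.95%, 3.47% and 2.90% in uninjured ones. Injured replicate 3, with the high lectican level, had the lowest Dcn share of its group.

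**Figure D3:**
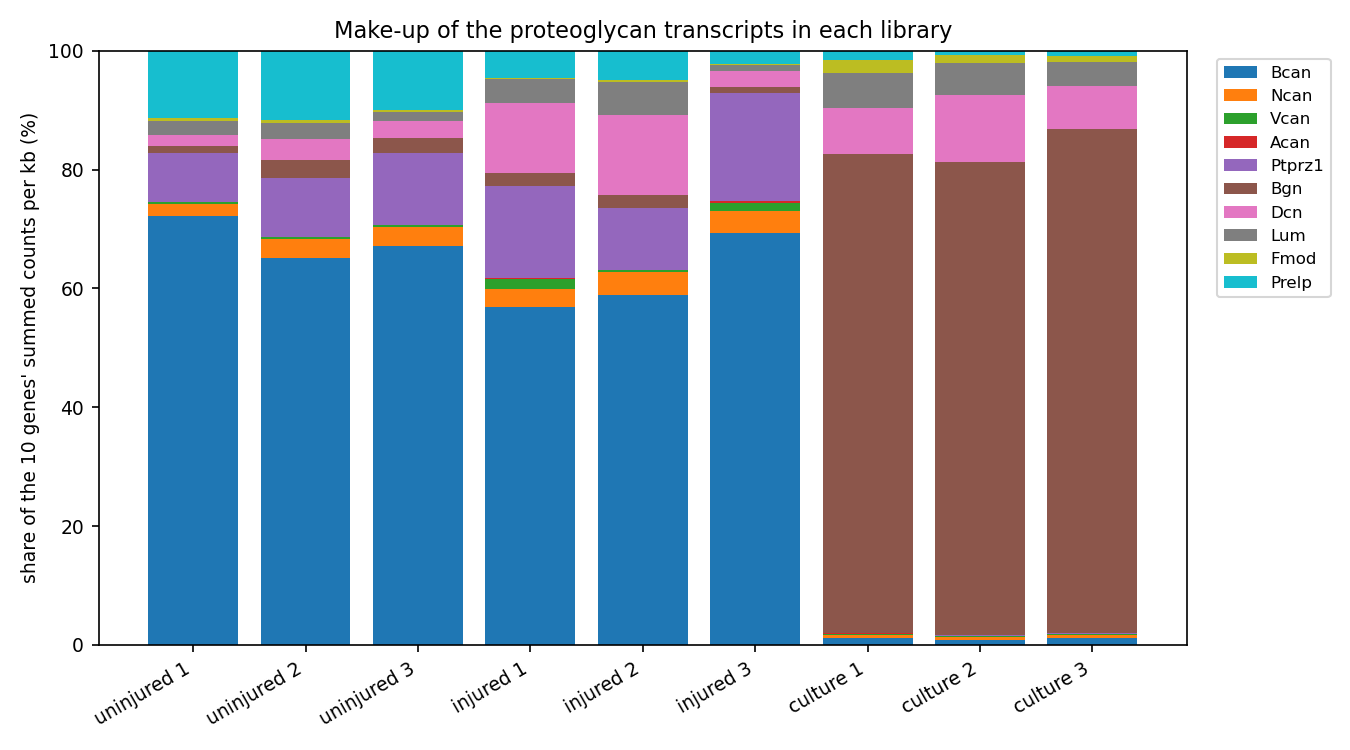
Share of each of the 10 genes in their summed counts per kilobase of exon, in percent, as a stacked bar for each of the 9 libraries. Bcan fills most of every in vivo bar and Bgn most of every culture bar, between 79.6% and 84.8%.

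The small leucine-rich genes were set beside markers of the cells known to make them. The 5 genes summed to 71.9, 69.9 and 76.1 CPM in uninjured, 52.5, 53.2 and 43.3 CPM in injured and 575, 554 and 560.1 CPM in culture libraries. These sums are TMM-scaled, whereas the marker sums are CPM of the library total. Cspg4 is counted among both the mural and the precursor markers, and Pdgfra among both the fibroblast and the precursor markers. Over the same libraries, 10 fibroblast markers summed to 39.2, 31.5 and 48.6, 42.7, 17.5 and 188 and 369, 109.6 and 173 CPM, and 10 mural cell markers to 982, 1795 and 2227, 566, 509 and 779 and 2817, 2738 and 2539 CPM. Of the 10 mural markers 5 were lower after injury and none higher, where 2.87% of all genes were lower and 8.99% higher. In cultures against uninjured cortex 4 were higher and 5 lower, with a median of -1.71, where 27.5% of all genes were higher and 33.1% lower. Acta2, the smooth muscle actin, was at 5.54, Myh11 at 2.68 and the pericyte genes Vtn, Kcnj8 and Rgs5 at -7.46, -6.15 and -3.34. Of 9 fibroblast markers tested, 4 were higher, 1 lower and 4 not called in cultures against uninjured cortex, with a median of 0.52, beside the same shares of all genes. Col1a1, Col1a2, Col3a1 and Osr1 were higher (6.09, 4.04, 6.49 and 5.84) and Slc6a13 was lower (-1.71). The counts of Bgn were 0.889%, 0.966% and 0.990% of the mural marker counts in uninjured, 1.08%, 1.07% and 1.29% in injured and 13.3%, 12.3% and 15.2% in culture libraries, whereas those of Prelp were 5.08%, 2.19% and 2.26%, 1.41%, 1.42% and 1.89% and 0.160%, 0.0631% and 0.102%. Against the fibroblast marker counts, Bgn was at 22.3%, 55.0% and 45.4% in uninjured, 14.3%, 31.1% and 5.36% in injured and 102%, 307% and 223% in culture libraries, and Prelp at 127%, 125% and 103%, 18.7%, 41.2% and 7.85% and 1.22%, 1.58% and 1.49%. By both sets of markers the ratio of Bgn was highest in the 3 cultures, and that of Prelp was lower in every injured than in every uninjured library and lowest in the cultures; no test was made on these ratios. The part of these cell types in the changes was not tested.

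**Figure D4:**
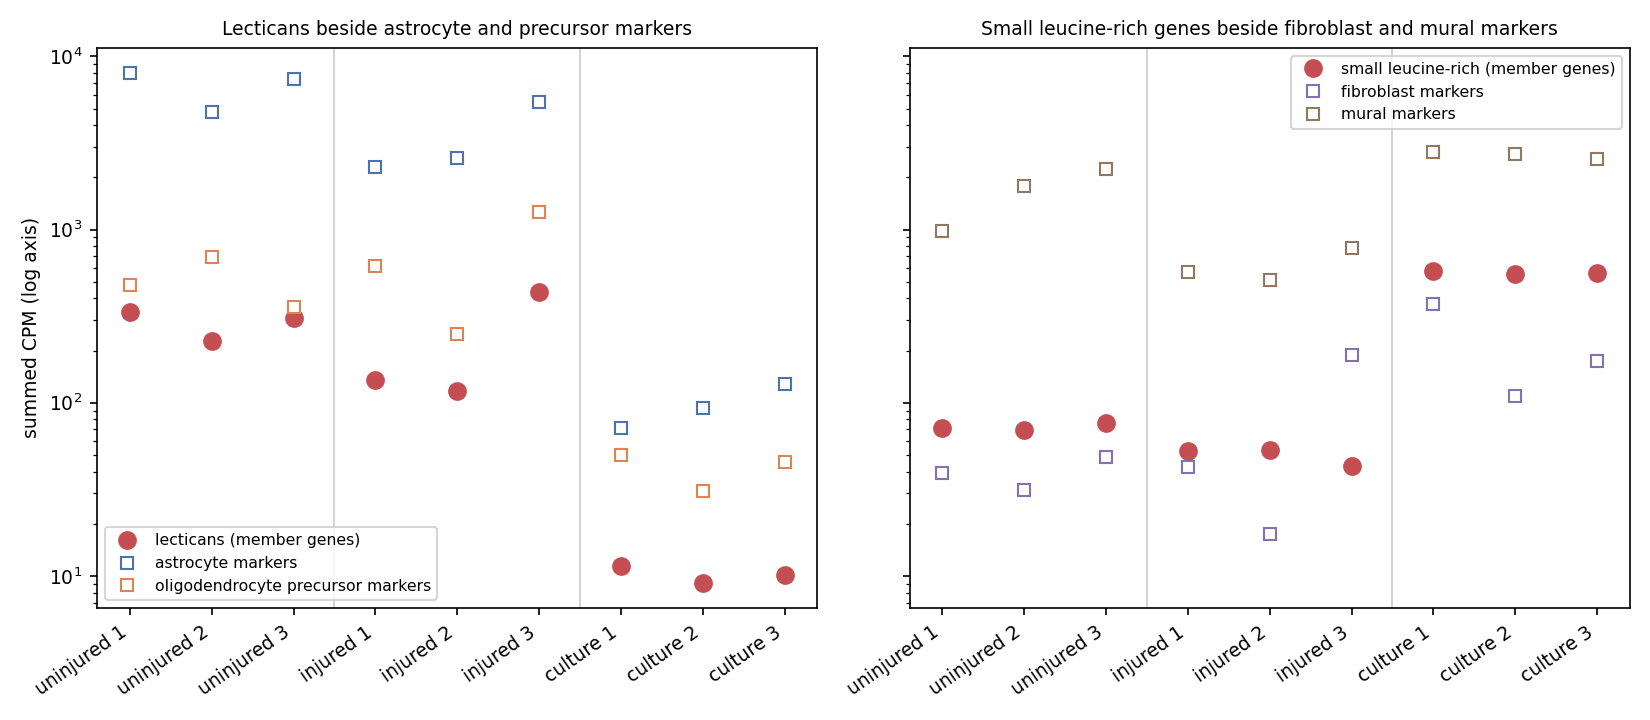
Summed CPM on a log axis in each of the 9 libraries, for the 4 lecticans beside astrocyte and oligodendrocyte precursor markers on the left, and for the 5 small leucine-rich genes beside fibroblast and mural cell markers on the right. Sums of the member genes are TMM-scaled, and marker sums are scaled to the library total. Lecticans and astrocyte markers are both lowest in the cultures and, within injured cortex, both highest in replicate 3. The small leucine-rich sum is 554.2 to 575 CPM in the cultures.

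Each lectican gene lies next to a gene for a link protein, which ties lecticans to hyaluronan: Vcan beside Hapln1, Bcan beside Hapln2, Acan beside Hapln3 and Ncan beside Hapln4. After injury Vcan was called higher while Hapln1 was at -1.07 ± 0.35 (adjusted p = 0.0710), and Hapln2 fell from 215 ± 44.8 to 113 ± 16.9 CPM (-0.93, adjusted p = 0.0155), a call lost without uninjured replicate 2 (adjusted p = 0.0580). In the cultures Hapln1 and Hapln2 were at 0.126 ± 0.0538 and 0.218 ± 0.0395 CPM, with log2 fold changes of -6.41 and -8.99 against injured cortex. Ncan fell in the cultures, and its neighbour Hapln4 had 20, 20 and 11 counts there, 6, 9 and 5 in injured and 2, 0 and 6 in uninjured cortex. Its log2 fold change in the cultures was 2.81 ± 0.88 against uninjured cortex (adjusted p = 0.0151) and 1.82 ± 0.80 against injured cortex (adjusted p = 0.0738). Link protein and tenascin genes called higher against uninjured cortex, which were Tnc and Hapln4, went from 2 to 1 without culture replicate 1, culture replicate 2 or uninjured replicate 2, with uninjured replicates 2 and 3 both left out, and with a filter of 1 CPM in 3 libraries, while Tnc kept its call. Among all 6 link proteins and tenascins, 1 was called higher and 1 lower after injury, where 8.99% of all genes were higher and 2.87% lower. The number lower was 2 with the DESeq2 Wald test, limma-voom, no filter or the replicate block, and without injured replicate 3. In cultures against injured cortex 1 was higher and 4 lower (median -4.83 against -0.19 for all genes, of which 20% were higher and 30.1% lower). The higher one was in both cases Tnc, tenascin-C, at 1.07 ± 0.957 CPM in uninjured cortex, 4.70 ± 1.99 in injured cortex and 153 ± 55.6 in the cultures; its call after injury was lost without uninjured replicate 2 (adjusted p = 0.102), in a fit of the 2 groups alone and with library sizes that left out the most abundant genes.

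Among 8 other genes of chondroitin sulfate proteoglycans, 1 was called higher and 2 lower after injury, where 8.99% of all genes were higher and 2.87% lower. Srgn, the serglycin core protein of blood cell granules, rose from 136 ± 40.3 to 868 ± 474 CPM (2.68 ± 0.43, adjusted p = 0.00176), and the testican genes Spock1 and Spock3 fell (-1.10 and -1.50). These 3 calls were lost with uninjured replicates 2 and 3 both left out (adjusted p = 0.119, 0.0661 and 0.156). In cultures against injured cortex 1 was higher and 5 lower (median -3.69), where 20% of all genes were higher and 30.1% lower. Spock3 was at -8.33, Cspg5 (neuroglycan C) at -6.13, Spock1 at -5.88 and Srgn at -2.54. Cspg5 is also among the genes most like Bcan and Ptprz1 below.

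Heparan sulfate proteoglycans sit on cell surfaces and in basement membranes. Of 12 tested, 3 rose and 1 fell after injury, where 8.99% of all genes were higher and 2.87% lower. Sdc1 (syndecan 1) rose by 3.03 ± 0.41, Sdc3 by 2.13 and Sdc4 by 1.01, and Sdc2 was at -0.76. Sdc4 lost its call without injured replicate 1, uninjured replicate 2 or uninjured replicate 3 (adjusted p = 0.0919, 0.0757 and 0.0779), and Sdc2 without injured replicate 1, injured replicate 2, uninjured replicate 1 or uninjured replicate 2 (adjusted p = 0.116, 0.0878, 0.0995 and 0.0601). In cultures against uninjured cortex 8 were higher and 3 lower, where 27.5% of all genes were higher and 33.1% lower (median 1.76 against -0.17), with Sdc1 at 7.27 and Col18a1, the collagen XVIII core, at 6.63, against Gpc5 (glypican 5) at -7.11.

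Of 12 other small leucine-rich repeat genes, 7 could be tested. In cultures against uninjured cortex 6 were lower and 1 higher (median -2.45 against -0.17 for all genes, of which 33.1% were lower and 27.5% higher). Ecm2 was at -3.91, Aspn (asporin) at -2.46 and Chad (chondroadherin) at -7.45, and Tsku (tsukushi) at 3.27. Ecm2, Aspn, Omd and Ogn are neighbours in 1 row on a chromosome. After injury Ogn (-1.49 ± 0.40, adjusted p = 0.0325) and Ecm2 (-1.63 ± 0.48, adjusted p = 0.0476) were called lower, Aspn was at -1.39 (adjusted p = 0.0548) and Omd at -1.89 (adjusted p = 0.148). The call of Ogn was lost without injured replicate 1, injured replicate 2, uninjured replicate 1, uninjured replicate 2 or culture replicate 3 (adjusted p = 0.117, 0.0808, 0.0855, 0.128 and 0.0510), and that of Ecm2 without injured replicate 1, injured replicate 2, uninjured replicate 2, uninjured replicate 3 or culture replicate 1 (adjusted p = 0.148, 0.0871, 0.171, 0.135 and 0.0686).

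Enzymes in the Golgi build the sugar chains. Of 21 tested genes of chondroitin and dermatan sulfate synthesis, 0 were called between injured and uninjured cortex by edgeR, DESeq2 or limma-voom. At an unadjusted p under 0.05 there were 2, and the median was 0.14. Of all genes, 11.9% were called by edgeR after injury and 26.2% had an unadjusted p under 0.05. In cultures against injured cortex 10 of the 21 were higher, 3 lower and 8 not called, with a median of 0.61 against -0.19 for all genes. There 50.1% of all genes were called, 20% higher and 30.1% lower. Dse, the epimerase that turns chondroitin into dermatan sulfate, was at 8.85 ± 0.381 CPM in uninjured cortex, 13 ± 2.09 in injured cortex and 47.5 ± 18.2 in the cultures (1.88 ± 0.27 against injured cortex, adjusted p = 1.55e-04). Chpf2, a chondroitin polymerising factor, was at 2.44 and Xylt2, the xylosyltransferase that starts the chains, at 1.35, whereas the sulfotransferase gene Chst7 was at -2.44. Of 5 genes of keratan sulfate synthesis, 4 were lower in cultures than in injured cortex and 0 higher (median -1.46), where 30.1% of all genes were lower and 20% higher. Chst5, 1 of the 4, lost its call without culture replicate 1, 2 or 3 (adjusted p = 0.0648, 0.0695 and 0.0501). B3gnt7 was the single call after injury (2.66 ± 0.54, adjusted p = 0.00753), where 8.99% of all genes were called higher. Its call was lost with uninjured replicates 2 and 3 both left out (log2 fold change 1.88).

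Of 6 protease genes known to cut lecticans, 0 were called after injury by edgeR, DESeq2 or limma-voom. An unadjusted p under 0.05 was found for 1. Of all genes, 11.9% were called by edgeR after injury and 26.2% had an unadjusted p under 0.05. In cultures against injured cortex Adamts4, an aggrecanase, was lower (-2.60 ± 0.35, adjusted p = 9.43e-05) and Adamts8 higher (1.61 ± 0.54, adjusted p = 0.0254). In that comparison 30.1% of all genes were called lower and 20% higher. Adamts8 lost its call without either of culture replicates 1 and 3 or injured replicates 1 and 3 (in the order culture 1, injured 1, injured 3 and culture 3, adjusted p = 0.0905, 0.0678, 0.0731 and 0.0580). Of 3 tested receptor genes for chondroitin sulfate, Rtn4rl1 (-1.33) and Ptprf (-1.36) were lower in the cultures than in injured cortex, where 30.1% of all genes were called lower. After injury 0 of these receptor genes were called by any of the same 3 tools, nor had any an unadjusted p under 0.05. Ptprf lost its call without culture replicate 1, culture replicate 2, culture replicate 3 or injured replicate 3 (adjusted p = 0.0723, 0.0974, 0.0612 and 0.206, the last with a log2 fold change of -0.59).

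**Figure D5:**
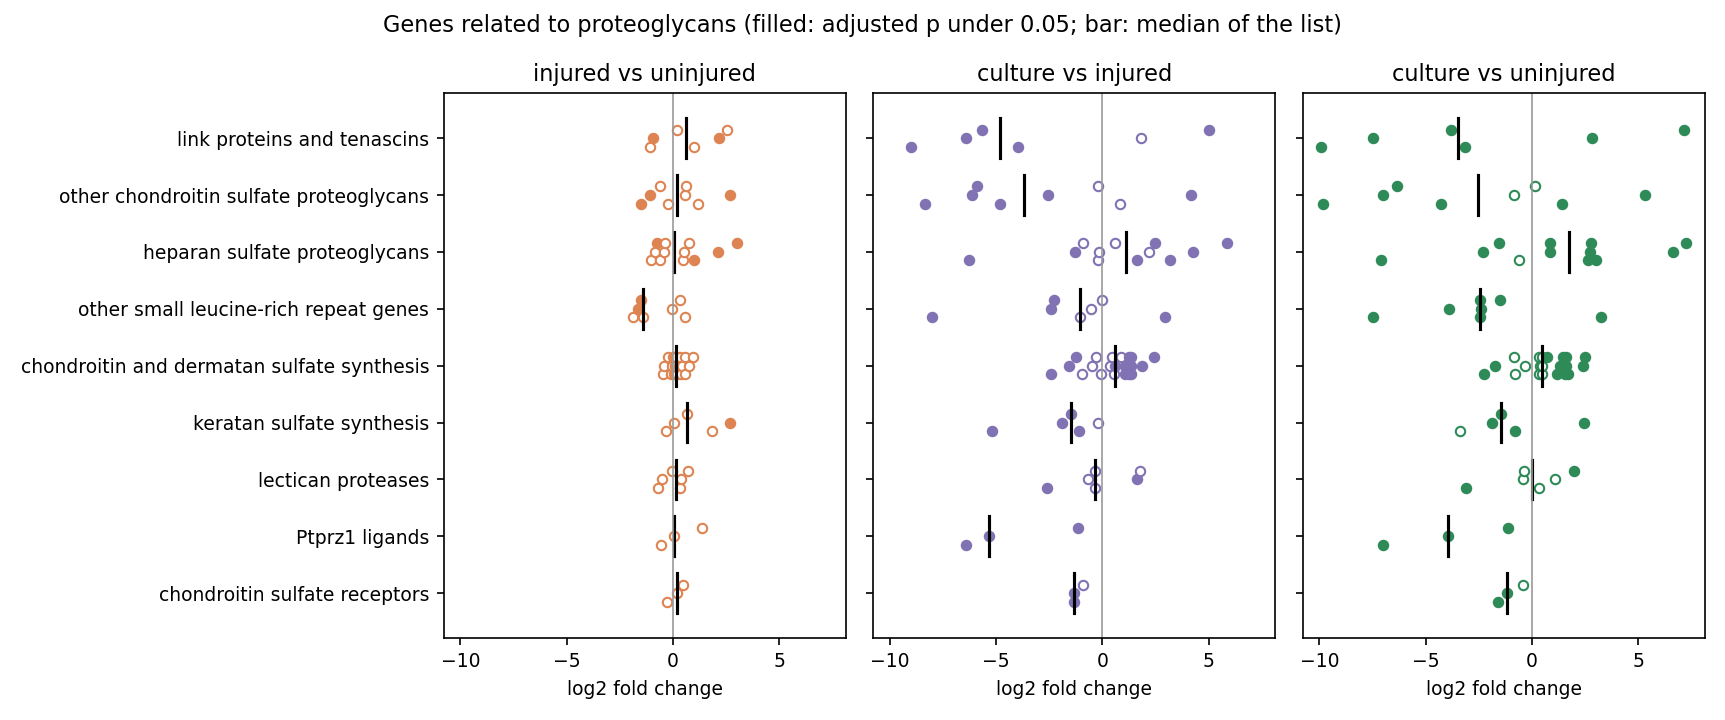
Log2 fold change of each tested gene of 9 lists of related genes, in 3 comparisons, with filled points for an adjusted p under 0.05 and a bar at the median of each list. Few points are filled after injury and none in the list of chondroitin and dermatan sulfate synthesis, while in the culture comparisons the link proteins and tenascins spread from Hapln2 at the left end to Tnc at the right.

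Likeness of pattern was measured as the root mean square difference of centred log2 CPM over the 9 libraries, among 9102 genes whose mean reached 10 CPM, where 0 is an identical pattern. Cspg5 was nearest to Bcan (0.305), followed by AW047730 (0.337) and the astrocyte glutamate transporter gene Slc1a3 (0.366). Cspg5 was also nearest to Ptprz1 (0.323), before Slc6a11 (0.439), a GABA transporter gene, and Bcan itself (0.469). Stard9, Oplah and Soga1 were nearest to Ncan (0.218 to 0.236). Stmn3 (0.512), Cdo1 (0.594) and Apobec3 (0.725) were nearest to Vcan. Gsta3 (0.432), Gask1b (0.481) and Lrrc32 (0.510) were nearest to Bgn, and Haus4, Clic1 and Gm2000 to Dcn (0.190 to 0.197). The patterns rest mostly on the differences between the 3 groups.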

How the data were processed

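RNA of 9 libraries, 3 in each of 3 groups, was compared from the raw gene counts deposited by the authors. Per the submitters' processing notes, reads were aligned with HISAT2 to GRCm39; the versions, counter, strand setting and gene annotation were not given in the sources used here. If strand was not used, reads of a gene and of an overlapping antisense gene cannot be told apart. The analysis used edgeR 4.0.16 in R 4.3.3: TMM scaling, filterByExpr (18093 genes tested, 9 of the 10 members), 1 quasi-likelihood fit over all 9 libraries with 6 residual degrees of freedom, and Benjamini-Hochberg adjustment over all genes tested, called under 0.05. The SE of a log2 fold change was derived from the test, as its absolute value divided by the square root of the F statistic. Marker sums are CPM of the library total. Alternatives were DESeq2 1.42.0 size factors, its Wald test, limma-voom (limma 3.58.1), upper-quartile factors, library sizes without abundant genes, other filters, 2-group fits, a replicate block and left-out libraries, 19 in all. The members, lists and alternatives were chosen with earlier results of these data known. Named genes are the members, per list and comparison the up to 4 genes of smallest adjusted p, and the 3 genes most like each of 6 members; the marker genes, and Hapln4 as a neighbour, fall outside this rule and were chosen after their values were seen. Lengths are exon unions of GENCODE M21 (GRCm38), matched by gene ID, and promoters and gene order are RefSeq's (GRCm38.p6).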

Additional observations from a re-analysis of the deposited data

How the results depend on the processing

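Over 19 alternatives, directions and calls of Prelp in all 3 comparisons, and of Bcan, Ncan, Ptprz1 and Bgn in both culture comparisons, did not change. After injury the number of proteoglycan genes called higher, 2, was 1 with limma-voom and 0 with upper-quartile factors, with library sizes that leave out mitochondrial and the 100 most abundant genes, in a fit of the 2 groups alone, and with uninjured replicates 2 and 3 both left out. The number called lower, 2, was 1 with limma-voom, in the 2-group fit and with both uninjured replicates left out. Leaving out 1 library in turn gave 0 to 2 higher and 1 to 5 lower; the 5 were without injured replicate 3. All genes called after injury numbered 2145, against 1369 in the 2-group fit, 462 with both uninjured replicates left out and 974 to 4102 without 1 library. Leaving out 1 library gave 3 to 4 higher and 5 lower in cultures against injured cortex (7152 to 9330 genes), and 3 to 4 higher and 4 lower against uninjured cortex (9551 to 12147 genes). With both uninjured replicates left out, 2 were higher against uninjured cortex, of 6997 genes called, against 10954. Of the signs, Ncan after injury turned with no filter (0.00562), without injured replicate 1 (0.21), injured replicate 2 (0.22) or uninjured replicate 3 (0.11), and with both uninjured replicates left out (0.21). Ptprz1 turned with limma-voom (-0.0726) and without injured replicate 3 (-0.73), and Lum without injured replicate 3 (0.0705) or uninjured replicate 1 (0.0752). Without 1 library in turn, the 3 ranged from -0.84 to 0.22 (Ncan), -0.73 to 0.71 (Ptprz1) and -0.35 to 0.0752 (Lum). None of the turned values was called, and the cause was not tested.

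It was not settled whether replicate numbers pair the libraries: 3 of 9 same-numbered pairs had correlated deviations over 0.1, and 5 of 9 libraries correlated best with their own number. Same-numbered pairs ranged from -0.088 to 0.353, the highest being injured with uninjured replicate 3. With the replicate number as a block, 1 gene was called higher and 2 lower after injury (Vcan at 1.87, adjusted p = 0.0643), 4 and 5 in cultures against injured cortex, and 4 and 4 against uninjured cortex, of 2203, 9096 and 11060 genes called. Library sizes without the most abundant genes moved the median gene from -0.19 to -0.43 and from -0.17 to -0.55 in the 2 culture comparisons, and higher genes from 45.4% to 32.5% of the calls against uninjured cortex; after injury, higher genes were 75.8% of the calls, or 64.0% under upper-quartile factors. A limit of 3 counts corresponds to 0.102 to 0.235 CPM in these libraries, and Acan had at most 3 counts in the uninjured ones.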
